A study of Mus musculus with 8 samples.

Results

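Immunity-related GTPases are interferon-inducible, dynamin-like proteins with which mouse cells attack the membrane vacuoles that intracellular parasites and bacteria live in. The family falls into regulators, the GMS proteins Irgm1, Irgm2 and Igtp (also called Irgm3), which sit on the cell's own membranes and hold the others inactive there, and effectors, the GKS proteins Iigp1 (Irga6), Tgtp1 and Tgtp2 (both Irgb6) and Ifi47 (Irgd), which bind GTP and coat the vacuole of the microbe. IFNγ induces both kinds, and autophagy proteins of the ATG8 conjugation system help to place the effectors. The 7 genes named here were chosen by their symbols, and all 7 were found among the 55359 genes of the deposited table. Tests covered the 16309 genes whose mean over the samples reached 10 normalized counts, and the 7 were among them. Irgm1, Irgm2, Igtp and Ifi47 also had a mean above 10 in the unstimulated samples alone. Iigp1, Tgtp1 and Tgtp2 passed only through the stimulated samples, so that a rise with the stimulus was bound to be found in them, and their values are given as a description.

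Total RNA of bone-marrow-derived Mϕ (BMDMs) was sequenced in 4 groups of 2 samples each, so as to compare naïve and efferocytic Mϕ without and with an inflammatory stimulus. All cells came from C57BL/6 wildtype mice of both sexes and were differentiated with M-CSF and GM-CSF, each at 20 ng/mL, for a period that the sample labels give as 7 days in all and the methods as 6 days. Ctrl is naïve and unstimulated. LPS is naïve and received LPS (100 ng/mL) together with murine IFNγ (100 U/mL) for 6 h. Eff was co-cultured with apoptotic fibroblasts and was not stimulated. LPSEff was co-cultured with apoptotic fibroblasts and then received the same stimulus as LPS. No selection for uptake is described. According to the paper, most but not all Mϕ held material of apoptotic cells after a co-culture overnight. The apoptotic cells were NIH-3T3 CA fibroblasts of a single clone, which die when a dimerizer (10 nM, 6 h of pretreatment) activates the caspase-8 they carry. They were added at a stated ratio of 1:5 for 16 h, with the dimerizer still present, and washed off, and CD45+ cells of all samples were then selected on beads. Since LPS and IFNγ were always given together, the share of either in a response cannot be told apart. Whether the Mϕ of Ctrl and LPS were also exposed to the dimerizer is not given in the sources used here, so that its effect and that of the apoptotic cells cannot be told apart. The labels do not say whether the 2 samples of a group came from separate animals or cultures, so that p-values measure only the spread between these samples.

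The depth, recovered from the deposited values, was between 3481288 and 12020918 reads per sample, and 3 reads were worth between 1.73 and 5.71 normalized counts. The 10 macrophage markers checked, among them Lyz2, Itgam and Csf1r, summed to between 108856 and 164148 normalized counts in all samples. T cell and B cell markers were near 0, with at most 8 and 10 reads for any gene in any sample. Of 18 fibroblast markers 16 could be tested, of which 7 rose with efferocytosis alone and 7 with efferocytosis before the stimulus. In these contrasts 0.251% and 0.773% of all genes tested were called in either direction. Col3a1 and Dcn reached the filter only through the efferocytic samples, so that these counts are a description. The summed level of the 18 ran from 628 to 674 (Ctrl), from 2525 to 5057 (Eff), from 2492 to 4727 (LPS) and from 7176 to 8031 (LPSEff), and Dcn was at 0 in a Ctrl sample. In LPS vs Ctrl, without added fibroblasts, 4 of the 16 rose, where 12.4% of all genes tested rose. Lox alone held 3620 and 1335 normalized counts in the LPS samples. Pdgfrb had 246 and 245 there, against 19.3 and 38.1 in Eff, and Col5a1 had 410 and 305, against 255 and 349. Fbn1 had 141 and 146 in LPS, against 110 and 179 in Eff. Some other markers were far lower in LPS than in Eff. Among these, Col1a1 had 16.8 and 38.6, against 193 and 284, and Col6a3 had 15.5 and 17.3, against 605 and 1020. The 6 dendritic cell markers, none of them at 0, summed to between 2682 and 9683 normalized counts without and between 8343 and 24097 with the stimulus. Of these markers, 2 (Ccr7 and Xcr1) rose in LPS vs Ctrl, beside the same 12.4% of all genes tested. The 6 neutrophil markers summed to between 614 and 1246 without and between 1412 and 2028 with it, mostly S100a8 and S100a9. The part of such cells in the results that follow was not tested. Fewer cells of a type and less RNA per cell cannot be told apart in these bulk samples.

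The sequence that gives both branches their names shows the family at a glance. It lies in the first nucleotide-binding motif, where the loop that holds the phosphates of GTP is encoded, and is printed here 5′ to 3′ as the coding strand, with the codon that separates regulators from effectors in capitals (GENCODE transcripts on GRCm39).
Irgm1, chr11:48757588-48757611, minus strand: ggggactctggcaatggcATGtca
Irgm2, chr11:58110521-58110544, plus strand: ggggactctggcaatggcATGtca
Igtp, chr11:58097101-58097124, plus strand: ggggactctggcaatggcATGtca
Tgtp1, chr11:48878494-48878517, minus strand: ggggaaacaggcgcagggAAGtcc
Tgtp2, chr11:48950361-48950384, minus strand: ggggaaacaggcgcagggAAGtcc
Ifi47, chr11:48986475-48986498, plus strand: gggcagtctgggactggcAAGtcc
The regulators share all bases of the motif and have ATG, the codon for methionine, where the effectors have AAG, the codon for lysine. Iigp1 also has AAG at this codon. Outside the motif the regulators differ more: over their longest reading frames, Irgm1 was 61.8% identical to Irgm2 and 63.9% to Igtp. Tgtp1 and Tgtp2 were 99.7% identical, with 4 mismatched bases in a frame of 1248 bases.

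All but 1 of the genes lie on chromosome 11, in a pair of neighbourhoods (GENCODE on GRCm39). Irgm1 (ENSMUSG00000046879, from 48752795 to 48763164), Tgtp1 (ENSMUSG00000078922, from 48876154 to 48884999) and Tgtp2 (ENSMUSG00000078921, from 48948021 to 48955033) lie on the minus strand, and Ifi47 (ENSMUSG00000078920, from 48967412 to 48987813) follows on the plus strand. Igtp (ENSMUSG00000078853, from 58089840 to 58098417) and Irgm2 (ENSMUSG00000069874, from 58090444 to 58113615) overlap on the plus strand. Iigp1 (ENSMUSG00000054072) is on chromosome 18.

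The copies matter for what a count means. Reads of 50 cycles were counted only where they mapped to 1 place and 1 gene. Of all windows of 50 bases in the exons of Tgtp1, 567 of 3071 (18.5%) occur once in the genome, and of Tgtp2 262 of 2791 (9.39%). The same share was 88.6% in Irgm2, 88.9% in Igtp, 92.3% in Iigp1, 98.8% in Irgm1 and 100% in Ifi47. The counts of Tgtp1 and Tgtp2 could thus come only from a small part of their transcripts, and how reads divide between them is uncertain. On the same strand, Igtp and Irgm2 share 162 exon bases, Tgtp1 shares 317 with Gm12185, another gene of the family, and Ifi47 shares 111 with the olfactory receptor gene Or2v1. The default counting gives a read in such a stretch to neither gene, provided that the annotation used by the authors, whose release is not given in the sources used here, holds the same exons and that reads were counted by strand as in these defaults. Were the strand not used, exon bases shared with genes of the opposite strand would count as well, of which Irgm1 has 497, Irgm2 289 and Ifi47 360 with a single gene.

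LPS/IFNγ raised the family in naïve Mϕ. Irgm1, Irgm2, Igtp and Ifi47, the 4 genes that the stimulated samples did not bring into the test, all rose (adjusted p under 0.05, limma with Benjamini-Hochberg adjustment over all tested genes), where 12.4% of all genes tested rose. In these 4, both LPS samples lay above both Ctrl samples, as in 28.4% of the genes tested. Iigp1, Tgtp1 and Tgtp2 were called too, which carries no weight beside that share. The fitted rises ran from 10.6-fold for Irgm2 to 232-fold for Iigp1 on the scale of (normalized count + 1). The median log2 difference of the 7 genes was 5.05, against −0.01 over all genes tested, and is likewise a description.

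Among the regulators, Irgm1, known for its part in the defence against mycobacteria, had the highest level per exon length before and after stimulation. Its Ctrl samples had 314 and 278 normalized counts, and its LPS samples 3652 and 5894. The lower LPS sample thus exceeded the higher Ctrl sample more than 10-fold. The log2 difference was 3.97 (SE 0.24, adjusted p = 4.41e-05, limma, n = 2 per group). Irgm2, a regulator found at the Golgi apparatus, had 97.1 and 87.9 normalized counts in Ctrl and 713 and 1371 in LPS, with a log2 difference of 3.41 (SE 0.35, adjusted p = 0.00041), the smallest rise of the 7. Igtp, a regulator of the endoplasmic reticulum, had 87.6 and 81.5 normalized counts in Ctrl and 1355 and 2851 in LPS, with a log2 difference of 4.52 (SE 0.38, adjusted p = 0.000161). For all 3 regulators the lower LPS sample lay far above both Ctrl samples.

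Among the effectors, Ifi47 was already present in Ctrl and the other 3 genes were close to the limit of detection. Ifi47 had 107 and 114 normalized counts in Ctrl and 3457 and 5311 in LPS, a log2 difference of 5.27 (SE 0.28, adjusted p = 3.11e-05). Iigp1, an effector bound to membranes by a fatty acid, had 1 and 15 reads in the Ctrl samples, or 1.90 and 8.67 normalized counts, and 740 and 2040 normalized counts in LPS. Its log2 difference of 7.86 (SE 0.64, adjusted p = 0.000144) was the largest of the 7, and it was the 13th largest rise of all genes tested. Without Ctrl replicate 1 the log2 difference was 6.99, and without Ctrl replicate 2 it was 8.73. Without LPS replicate 1 it was 8.59, and without LPS replicate 2 it was 7.13. Both Ctrl values were low, so that the size of this rise rests on few reads: the pooled rate was 207-fold higher in LPS, with an exact 95% interval of 127 to 362 that covers counting error only.

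Tgtp1 and Tgtp2, which encode effectors that reach the vacuole early, were at the floor without stimulation. Tgtp1 had 1 read in each Ctrl sample, against 33.6 and 144 normalized counts in LPS (log2 difference 5.05, SE 0.83, adjusted p = 0.00369). Pooled over the samples, the rate was 108-fold higher (95% interval 29.4 to 897, from 2 reads against 168). Tgtp2 had 0 and 4 reads in the Ctrl samples and 82.8 and 177 normalized counts in LPS (log2 difference 6.07, SE 0.72, adjusted p = 0.000843), and its pooled rate was 76.3-fold higher (95% interval 29.4 to 282, from 4 reads against 238). These differences of log2(normalized count + 1) understate the change of genes so near 0. Single samples also moved them: Tgtp1 was at 6.08 without LPS replicate 1 and at 4.02 without LPS replicate 2, and Tgtp2 at 5.20 without Ctrl replicate 1 and at 6.93 without Ctrl replicate 2. With both genes summed to 1 feature, the log2 difference was 5.85 (SE 0.66, adjusted p = 0.000676).

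**Figure D1:**
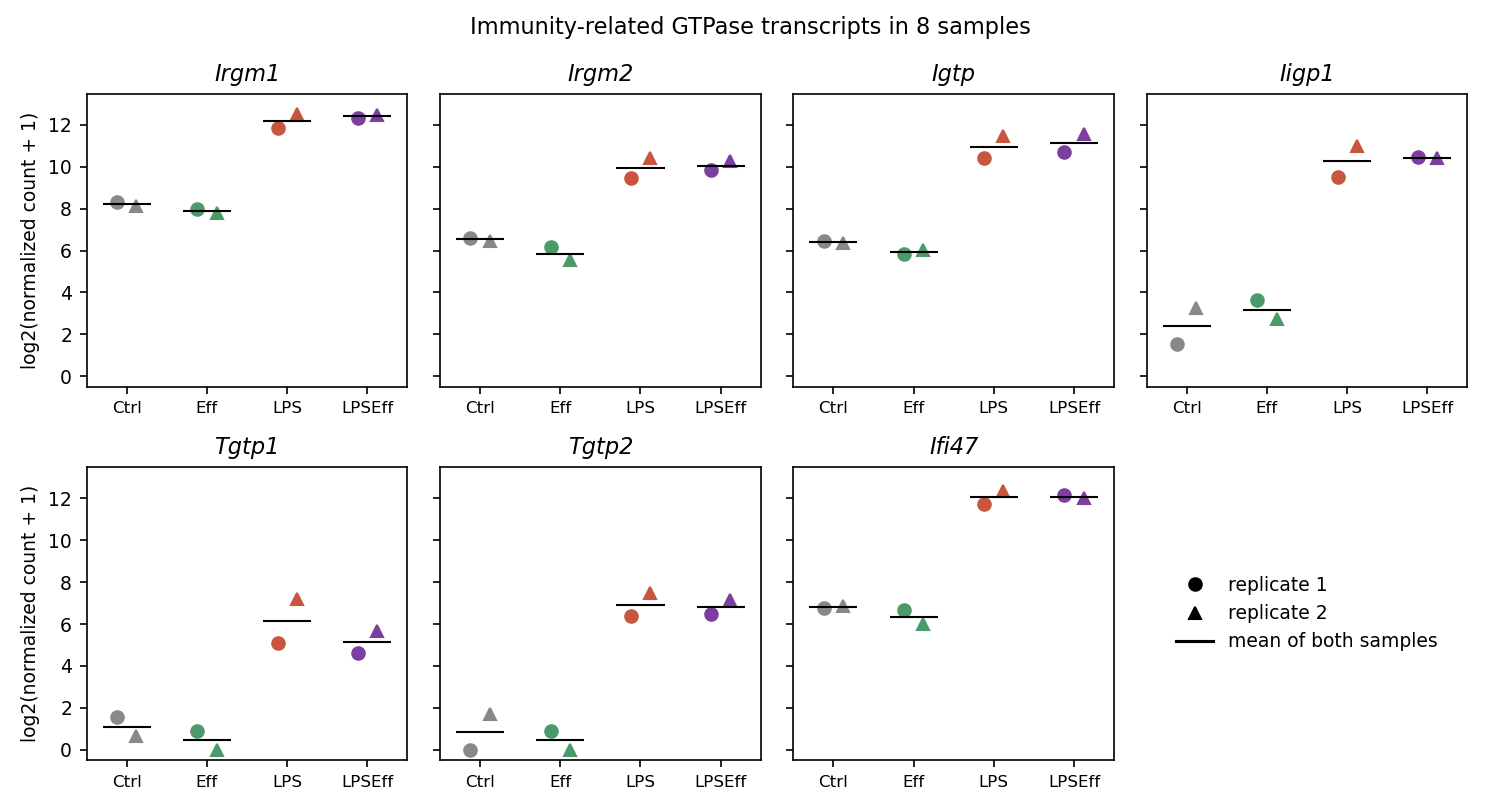
The log2(normalized count + 1) of each gene is plotted for both samples of Ctrl, Eff, LPS and LPSEff, with circles for replicate 1, triangles for replicate 2 and a line at their mean. In all 7 panels the 4 stimulated samples lie above the 4 unstimulated ones, and Tgtp1 and Tgtp2 start nearest to 0.

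The LPS samples differed from each other in the same way for the whole family. In LPS, replicate 2 was higher than replicate 1 for all 7 genes, by a ratio of 1.54 (Ifi47) to 4.29 (Tgtp1), and the summed count of the 7 genes was 10034 and 17788 normalized counts. In LPSEff replicate 2 was the higher for 5 genes, and the sums, at 13928 and 15476, lay between those of the LPS samples. The summed dendritic cell markers were also at their highest in LPS replicate 2 (24097, against 10651 in replicate 1), and their part in this difference was not tested. Without LPS replicate 2, the median log2 difference in LPS vs Ctrl was 4.02 in place of 5.05, and all 7 genes were still called.

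The balance of the family changed with stimulation. The regulators held between 76.4% and 82.6% of the summed normalized counts in the 4 unstimulated samples and between 56.1% and 63.6% in the 4 stimulated ones, so that the 2 ranges did not overlap. Irgm1 alone supplied most of this share in all samples. These shares are of counts not scaled by length, and they leave out the reads of Tgtp1 and Tgtp2 that could not be placed.

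In efferocytic Mϕ, LPS/IFNγ raised the family as well. Irgm1, Irgm2, Igtp and Ifi47 all rose in LPSEff vs Eff (adjusted p under 0.05, limma), where 10.7% of all genes tested rose, and in these 4 both LPSEff samples lay above both Eff samples, as in 29.5% of the genes tested. Iigp1, Tgtp1 and Tgtp2 were called as well, with the same limit as in naïve Mϕ. The median log2 difference of the 7 genes was 5.21, against 0.01 over all genes tested. Both contrasts rest on different samples.

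The fitted log2 differences of the regulators lay between 4.21 and 5.21. Irgm1 had 249 and 217 normalized counts in Eff and 5217 and 5611 in LPSEff (log2 difference 4.53, SE 0.24, adjusted p = 2.13e-05, limma). Irgm2 went from 70.1 and 45.2 to 908 and 1236 (log2 difference 4.21, SE 0.35, adjusted p = 0.000144). Igtp had 56.1 and 63.5 normalized counts in Eff and 1686 and 2998 in LPSEff (log2 difference 5.21, SE 0.38, adjusted p = 7.6e-05). Both samples of Irgm1 in LPSEff were close together, while those of Igtp differed 1.78-fold.

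The effectors again covered the widest range. Ifi47 had 103 and 62.8 normalized counts in Eff and 4580 and 4090 in LPSEff (log2 difference 5.74, SE 0.28, adjusted p = 1.54e-05). Iigp1 had 11.4 and 5.65 normalized counts in Eff and 1427 and 1352 in LPSEff (log2 difference 7.26, SE 0.64, adjusted p = 0.000196), and it was the 21st largest rise of all genes. Tgtp2 had 1 and 0 reads in Eff and 87.1 and 140 normalized counts in LPSEff (log2 difference 6.34, SE 0.72, adjusted p = 0.000749). Its pooled rate was 274-fold higher, but with 1 read in Eff the 95% interval ran from 48.7 to 10887. Tgtp1 also had 1 and 0 reads in Eff and reached only 23.8 and 49.5 normalized counts in LPSEff (log2 difference 4.69, SE 0.83, adjusted p = 0.00602). Its pooled rate was 86.1-fold higher (95% interval 14.9 to 3448, from 1 read against 69). This is the least certain of the rises, and without LPSEff replicate 2 its adjusted p was 0.0504.

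**Figure D2:**
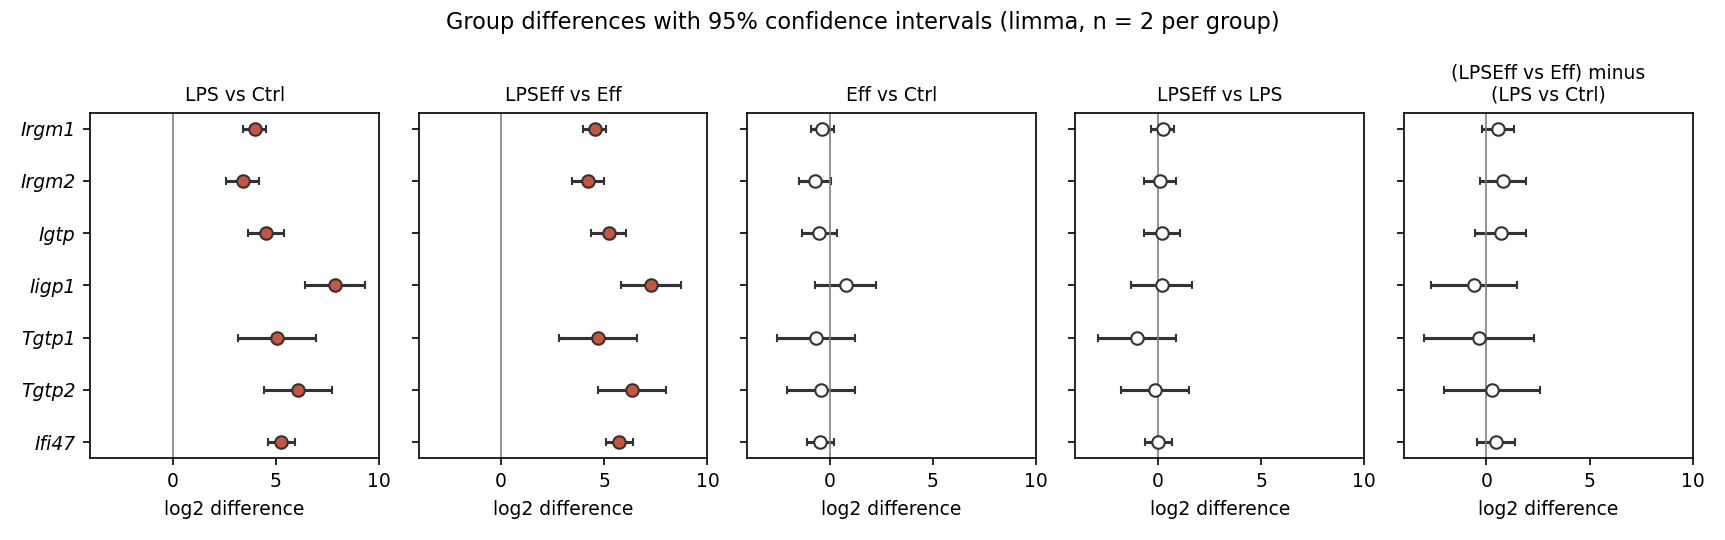
Points give the log2 difference of each gene in 4 contrasts and in the difference between both stimulus effects, bars the 95% confidence interval from limma, and filled points an adjusted p under 0.05. All 7 points are filled in both contrasts with LPS/IFNγ, and all intervals of the other 3 panels cross 0.

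Whether efferocytosis itself changed the family was compared without stimulation. In Eff vs Ctrl, 0 of the 7 genes were called by limma, against 0.251% of all genes tested in either direction, and 0 had an unadjusted p under 0.05. By edgeR and DESeq2 on the recovered reads 0 were called as well. Among Irgm1, Irgm2, Igtp and Ifi47, the largest difference was that of Irgm2, with 97.1 and 87.9 normalized counts in Ctrl and 70.1 and 45.2 in Eff (log2 difference −0.70, 95% interval −1.502 to 0.09, adjusted p = 0.907, limma). Irgm1 (−0.34, interval −0.90 to 0.21), Igtp (−0.49, interval −1.36 to 0.37) and Ifi47 (−0.45, interval −1.10 to 0.20) also had lower means in Eff. For these 4 genes both Eff samples lay below both Ctrl samples, as they did in 17.8% of the genes tested. Ifi47 did so narrowly, with its higher Eff sample at 103 and its lower Ctrl sample at 107.

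The other effectors could not be resolved without stimulation. The Iigp1 samples of Ctrl and Eff overlapped, with a log2 difference of 0.78 (95% interval −0.69 to 2.25). Tgtp1 and Tgtp2 had 2 and 4 reads in all of Ctrl and 1 read each in all of Eff, so that a difference was not detectable at this depth. The intervals reach down to −1.502 for Irgm2 and to −0.90 for Irgm1, so that falls up to this size on the log2 scale cannot be told from none.

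With stimulation, the samples of naïve and efferocytic Mϕ overlapped for every transcript of the family. In LPSEff vs LPS 0 of 7 were called by limma, against 0.773% of all genes tested, 0 had an unadjusted p under 0.05, and edgeR and DESeq2 also called 0. Of all genes tested, 36.3% had LPS and LPSEff samples that did not overlap, against 0 of the 7. Ifi47 had a mean of 4384 ± 1311 (SD, n = 2) normalized counts in LPS and 4335 ± 346 in LPSEff, and Iigp1 1390 ± 919 and 1389 ± 53.1. The log2 difference of Ifi47 was 0.01 (95% interval −0.64 to 0.66), that of Irgm1 0.22 (−0.33 to 0.77), that of Irgm2 0.10 (−0.70 to 0.90), that of Igtp 0.19 (−0.67 to 1.06) and that of Iigp1 0.18 (−1.29 to 1.65). For Irgm1, Irgm2 and Ifi47 the interval holds no change of 1 on the log2 scale in either direction. For Igtp, Iigp1 and both Tgtp genes a 2-fold difference lies within the interval. Tgtp1 had the lowest value, with 33.6 and 144 normalized counts in LPS and 23.8 and 49.5 in LPSEff (log2 difference −1.004, 95% interval −2.91 to 0.90).

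The difference between both stimulus effects was also tested directly. It was called in 0 of the 7 genes and in 0% of all genes tested by limma, and 0 of the 7 had an unadjusted p under 0.05 with limma, edgeR or DESeq2. The estimates were 0.57 for Irgm1 (95% interval −0.21 to 1.35), 0.80 for Irgm2 (−0.32 to 1.93), 0.69 for Igtp (−0.53 to 1.91) and 0.47 for Ifi47 (−0.45 to 1.39), where a positive value is a larger rise in efferocytic Mϕ. Those of Iigp1, Tgtp1 and Tgtp2 were −0.60, −0.36 and 0.28, each with an interval more than 4 wide. The estimates moved with the LPS samples. Without LPS replicate 2 they were 0.91 for Irgm1, 1.28 for Irgm2 and 1.22 for Igtp, and these 3 genes had an unadjusted p under 0.05, although none was called by limma. Without LPS replicate 1 they were 0.22, 0.33 and 0.15.

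Per length, the order of the family changed at the top with stimulation. In Ctrl, Irgm1 was highest with 46.6 ± 4.01 (SD, n = 2) normalized counts per 1000 exon bases, followed by Ifi47 with 38.8 ± 1.81, Irgm2 with 24.7 ± 1.74 and Igtp with 18.6 ± 0.94, and no neighbours in this order overlapped. Iigp1, Tgtp2 and Tgtp1 were under 1 on this scale. In LPS, Ifi47 was highest with 1541 ± 461, and both its samples exceeded those of Irgm1 (751 ± 249). Below them came Igtp (461 ± 232), Irgm2 (278 ± 124) and Iigp1 (218 ± 144), in which each gene overlapped with the next. In LPSEff the order was the same, and Ifi47 (1524 ± 122) and Irgm1 (852 ± 43.8) were again clear of each other.

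Tgtp2 and Tgtp1 came last per exon length in the stimulated samples, with 44.2 ± 22.6 and 27.2 ± 23.9 in LPS. When levels were instead divided by the windows of 50 bases that occur once in the genome, Tgtp2 reached 495 ± 253 per 1000 such windows in LPS, beside 536 ± 270 for Igtp and 331 ± 148 for Irgm2, and Tgtp1 reached 157 ± 138. Ifi47 (1787 ± 534) and Irgm1 (797 ± 265) kept the first places on this scale. The place of Tgtp2 in the family thus depends on how the length that could be counted is taken, and that of Tgtp1 remained low.

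**Figure D3:**
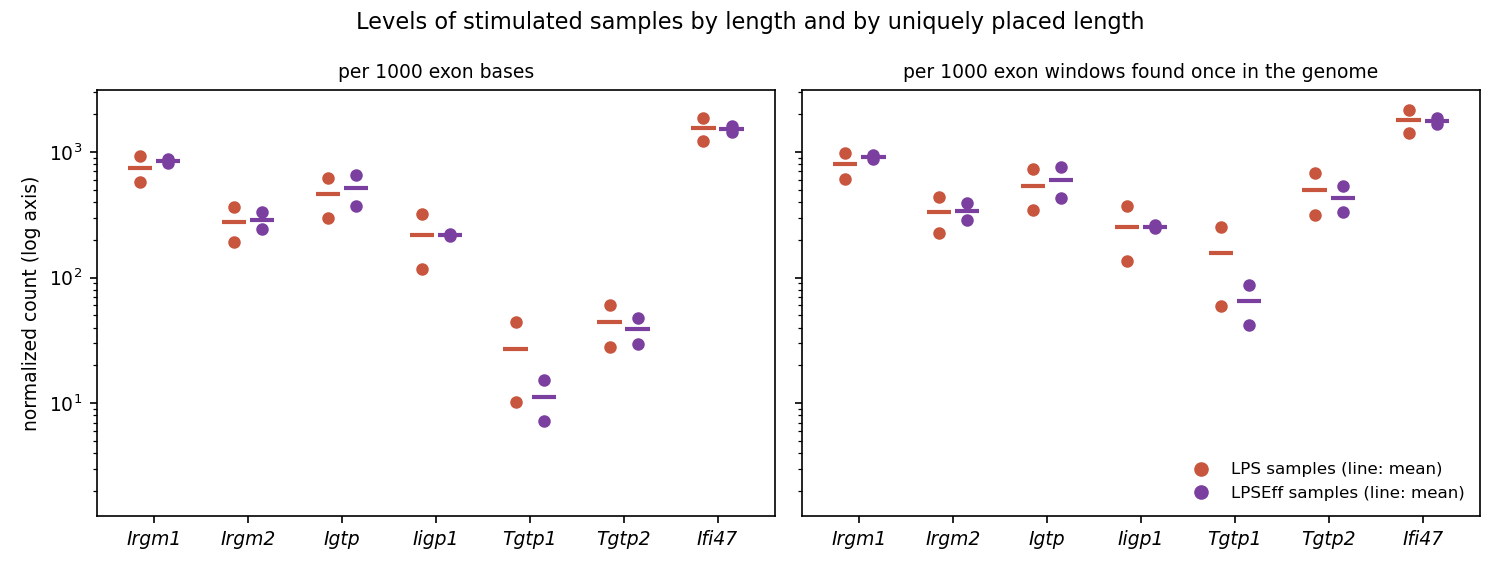
Normalized counts of the LPS and LPSEff samples are plotted on a log axis per 1000 exon bases (left) and per 1000 exon windows of 50 bases that occur once in the genome (right), with points for samples and lines for means. Tgtp2 lies between 28.2 and 60.1 in LPS on the left and reaches the range of Igtp and Irgm2 on the right, whereas Ifi47 is highest on both scales.

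Promoters of 4 of the genes carry letters of both classical interferon elements. The GAS element, known from genes that respond to IFNγ, was searched as TTCNNNGAA, and the core of the ISRE, which IRF proteins bind, as GAAANNGAAA, on both strands, where matches of 1 element may overlap each other. RefSeq windows from 250 bases before to 50 after the start (build GRCm38.p6, not the build of the counts) were matched for 6 of the 7 genes, all but Iigp1. Of 32851 such promoters in the table, 8.30% held a GAS and 3.44% an ISRE core. The stretches with matches are printed 5′ to 3′ on the gene's strand, with the matches in capitals, since they show an arrangement that 4 of the genes share.
Irgm2, chr11:58214890-58214934: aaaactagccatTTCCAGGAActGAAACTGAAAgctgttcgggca
Igtp, chr11:58199499-58199543: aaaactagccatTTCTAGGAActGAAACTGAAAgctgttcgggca
Tgtp1, chr11:48992302-48992346: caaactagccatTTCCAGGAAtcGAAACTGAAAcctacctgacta
Tgtp2, chr11:49064261-49064305: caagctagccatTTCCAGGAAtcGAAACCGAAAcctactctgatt
Irgm1, chr11:48871423-48871462: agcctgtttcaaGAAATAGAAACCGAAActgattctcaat
In Irgm2, Igtp, Tgtp1 and Tgtp2, a GAS is followed after 2 bases by an ISRE core, between 88 and 25 bases before the start. Irgm1 holds 2 overlapping ISRE cores and no GAS, and in the window of Ifi47 neither was found.

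This spacing was looked for after the values and the promoters had been seen, and it is given as a description. A GAS with an ISRE core 2 bases after it was found in 5 of the 32851 promoters (0.0152%). These were the 4 genes above and Gm12185, a further gene of the family that shares exon bases with Tgtp1. Gm12185 rose from 9.01 to 128 normalized counts in LPS vs Ctrl (log2 difference 3.46, SE 0.60, adjusted p = 0.00458, limma). Its means of 9.01 in Ctrl and 6.07 in Eff lay under the filter, so that a rise with the stimulus was bound to be found. The stretches also share letters outside the motifs, such as those just before the GAS, so that the promoters are not independent of each other.

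**Figure D4:**
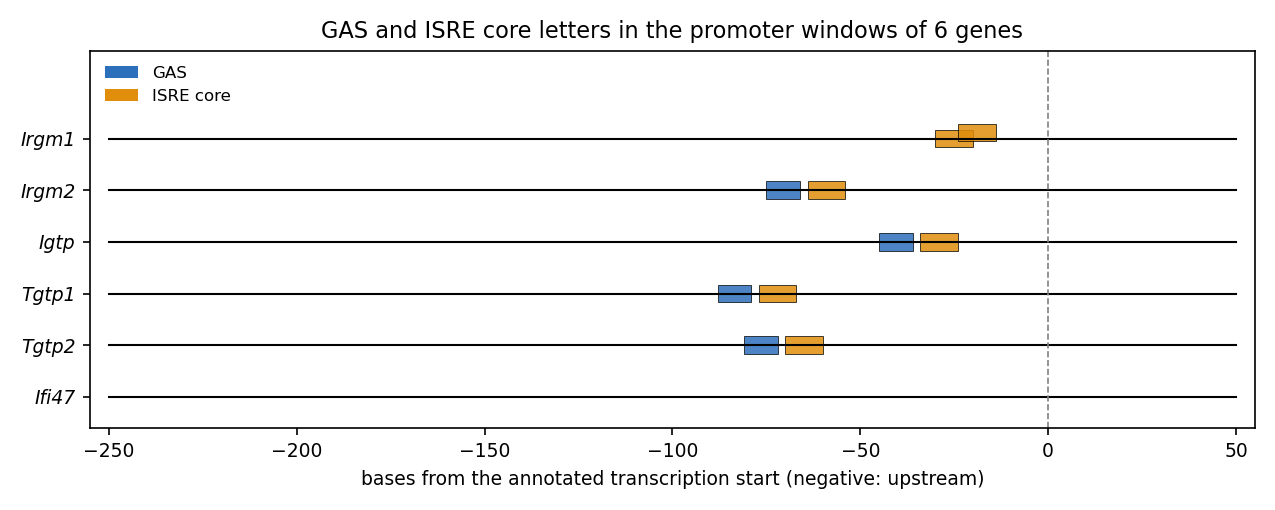
The promoter windows of 6 genes are drawn to scale as lines from 250 bases before to 50 bases after the annotated start (dashed), with boxes for GAS (blue) and ISRE core (orange) letters. The pair of boxes has the same spacing in Irgm2, Igtp, Tgtp1 and Tgtp2 and lies at different distances from the start.

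The genes around the family were followed through 4 lists. Of 9 tested genes in a list of other immunity-related GTPases, 6 rose and 0 fell both in LPS vs Ctrl and in LPSEff vs Eff. The shares of all genes tested that rose were 12.4% and 10.7%. The median log2 differences of the list were 3.03 and 3.02. F830016B08Rik (means of 4.59 in Ctrl and 2.91 in Eff) and Gm12185 (9.01 and 6.07) passed the filter only through the stimulated samples. The counts and medians of this list are thus a description. Iigp1c went from a mean of 16.7 to 704 normalized counts in LPS vs Ctrl (log2 difference 5.30, SE 0.32), Gm12250, which encodes the effector Irgb10, from 36.4 to 1021 (4.78, SE 0.36) and Gm5431 from 24.5 to 326 (3.66, SE 0.26). The genes not called, named here after their values were seen, were 9930111J21Rik2, Irgq and Irgc, with log2 differences of 1.32, 0.48 and −0.38. Several of these genes are close copies of each other, so that their counts are uncertain.

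Other interferon-inducible GTPases moved alongside. Of 16 tested, 14 rose in naïve and 15 in efferocytic Mϕ, and 0 fell, where 12.4% and 10.7% of all genes tested rose. The median log2 differences of the 16 were 4.85 and 4.62. Genes that passed the filter only through the stimulated samples were not set apart here, so that these counts and medians are a description. The largest rises in LPS vs Ctrl were those of the guanylate-binding proteins, which act on the same vacuoles: Gbp6 (3.55 to 387 normalized counts, log2 difference 6.51), Gbp2 (200 to 16146, 6.28) and Gbp4 (12.7 to 983, 6.12). Their adjusted p was 7e-05, 1.39e-05 and 1.76e-05 (limma).

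Of 19 tested interferon signalling genes, 15 rose and 0 fell in each of the stimulus contrasts, with medians of 1.41 and 1.74. Of all genes tested, 12.4% rose in naïve and 10.7% in efferocytic Mϕ. Genes that passed the filter only through the stimulated samples were again not set apart. Batf2, a transcription factor of the AP-1 family, rose from 21.2 to 425 normalized counts in naïve Mϕ (log2 difference 4.21, SE 0.30) and Irf1, which encodes a transcription factor of the IFNγ response, from 309.8 to 3983 (3.64, SE 0.24). In efferocytic Mϕ the log2 differences of Batf2 and Irf1 were 4.43 and 4.16.

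Of 21 genes of ATG8 conjugation and its adaptors, 15 were not called in LPS vs Ctrl, where 5 rose and 1 fell, and in LPSEff vs Eff 7 rose and 1 fell. Of all genes tested, 12.4% rose in the first contrast and 10.7% in the second. The medians of the list were 0.23 and 0.36. The genes that rose most were the ubiquitin ligase Trim21 (118 to 850 normalized counts, log2 difference 2.84, SE 0.20), the autophagy receptor Sqstm1 (2401 to 10411, 2.12, SE 0.21) and Rabgef1 (296 to 739, 1.33, SE 0.18), and the other two were Optn and Traf6, named after their values were seen. None of these 5 encodes an enzyme of the conjugation reaction. Atg7, the enzyme that activates ATG8 proteins, fell from 758 to 317 (log2 difference −1.25, SE 0.19, adjusted p = 0.0026) and from 806 to 347 in efferocytic Mϕ (−1.21, SE 0.19). Of the 65 genes tested from the 4 lists, limma called 0 in Eff vs Ctrl, in LPSEff vs LPS and in the difference between the stimulus effects. DESeq2 called 3, 2 and 0 of the 65, against 204, 368 and 0 of the 16309 genes tested, and edgeR called 0 of the 65 in each. At an unadjusted p under 0.05 were 15 in Eff vs Ctrl, of which 14 were lower in Eff (23.1%, against 6.13% of all genes tested), 5 in LPSEff vs LPS (7.69% against 10.3%) and 4 in the difference between the stimulus effects (6.15% against 1.91%).

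Without stimulation, the medians of 3 of the lists lay below 0 in Eff vs Ctrl. They were −0.55 for the other immunity-related GTPases, −0.62 for the other interferon-inducible GTPases and −0.25 for interferon signalling, against 0.01 for the ATG8 genes. Gm12250 had means of 36.4 normalized counts in Ctrl and 14.5 in Eff (log2 difference −1.27, adjusted p = 0.393, limma), Gm5431 of 24.5 and 11.6 (−1.02, adjusted p = 0.311) and Irf1 of 309.8 and 181 (−0.77, adjusted p = 0.470). These 3 genes were named after their values were seen, and none passed the test.

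**Figure D5:**
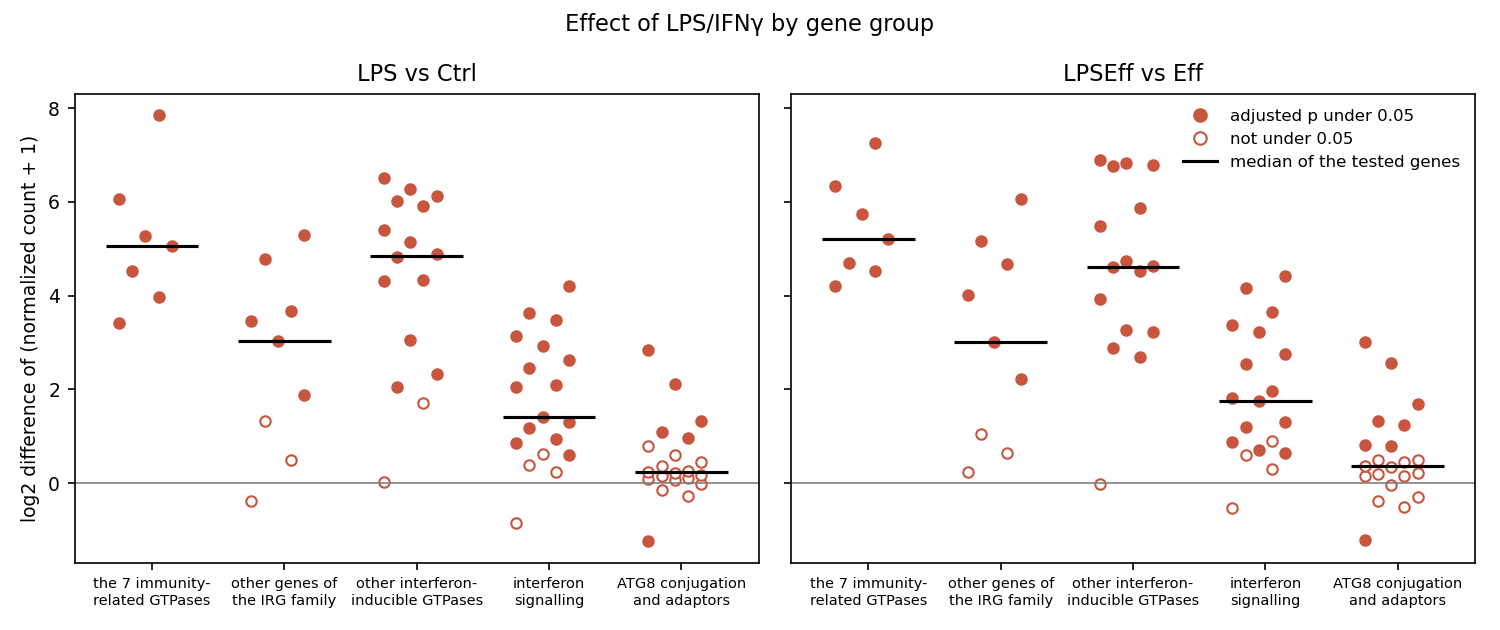
Each point is a tested gene, placed by its log2 difference in LPS vs Ctrl (left) or LPSEff vs Eff (right) and filled where the adjusted p was under 0.05, with a line at the median of each group. The 7 immunity-related GTPases have medians of 5.05 and 5.21, and the ATG8 conjugation genes have medians of 0.23 and 0.36 with both rises and 1 fall.

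The genes whose pattern over the 8 samples was most like that of the family were found by the correlation of their log2 values with the mean z-score of the 7 genes, among the 8815 other genes whose mean reached 100 normalized counts. Among the 5 most alike were Ddx60, Trim30a (both r = 0.998) and Gbp4 (r = 0.997). Ddx60, an RNA helicase, had between 21.9 and 42.1 normalized counts in the 4 unstimulated samples and between 805 and 1266 in the 4 stimulated ones. The correlation is a description over samples that fall into 2 clusters by stimulation, and of the members, Irgm1 lay closest to the mean of the family (r = 0.997) and Tgtp1 farthest from it (r = 0.978).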

How the data were processed

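Total RNA was depleted of rRNA and sequenced as single-end reads of 50 cycles. According to the methods and the submitters' processing notes, the authors used cutadapt for adapters, Bowtie2 against rRNA, STAR for mapping (mm39), HTSeq at its defaults for counting and DESeq2 for comparisons. Deposited by the authors is a signal for every gene called the normalized count, which is reads over a size factor of the sample. The reads were recovered by dividing each value by the worth of 1 read, and 100% came out whole within 0.01. Floors and intervals from reads cover counting error only.

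Names came from GENCODE annotation of GRCm39 (54749 of 55359 identifiers). The 16309 genes whose mean reached 10 normalized counts were tested on the scale log2(normalized count + 1) by limma's trend method (limma 3.58.1 in R 4.3.3), with all 8 samples, 4 group means and 4 residual degrees of freedom. A Benjamini-Hochberg adjusted p under 0.05 made a call. With 2 samples a group, the smallest p an exact permutation test allows is 0.333. Reads recovered were also tested with edgeR (version 4.0.16) and DESeq2 (version 1.42.0), as alternatives beside other pseudocounts, filters, scalings, a replicate block and leaving out each sample. Both count tests with the block were added after the data were seen. The tests were run on simulated counts in which only the LPS group was changed. These held no effect shared by samples of the same replicate number, so that they do not cover such an effect in the data. Reading frames were aligned with Biopython (version 1.88).

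The 7 genes and the gene lists were chosen with earlier results of these data known. Named in the text are the 7 genes, the 3 largest rises and falls of each list among genes called in LPS vs Ctrl, list genes of the family or of interferon signalling called in the other contrasts, and the 5 genes most like the family in pattern. Of 14 further family genes listed, 10 were found and 9 tested. Some genes that this rule names are not reported here.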

Additional observations from a re-analysis of the deposited data

How the results depend on the processing

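Under the alternatives that could be fitted, every gene of the 7 that was tested rose in LPS vs Ctrl and LPSEff vs Eff, except for Tgtp1 in LPSEff vs Eff without LPSEff replicate 2 (adjusted p = 0.0504, limma). In the other contrasts and in the difference between the stimulus effects, 0 were called under each alternative. The calls of Iigp1, Tgtp1 and Tgtp2 in both stimulus contrasts carry no weight here either, since these genes passed the filter only through the stimulated samples. With genes of a mean of at least 50, Tgtp1 was not tested, and with both Tgtp genes summed 6 features remained. Rescaling the samples to equal totals moved the median of all genes by −0.40 in LPS vs Ctrl and −0.44 in LPSEff vs Eff, and all 7 genes still rose. The cause of the differences below was not tested. The median log2 difference of the 7 genes in LPS vs Ctrl was 4.38 with a pseudocount of 5 and 4.49 with quantile normalization, and between 4.02 and 5.58 when single samples were left out. That in LPSEff vs Eff was 4.51 with a pseudocount of 5 and 5.75 with edgeR. Leaving out single samples, the median in LPSEff vs LPS ran from −0.37 to 0.57 and was below 0 without LPS replicate 1 or LPSEff replicate 2. In the same contrast, which called none of the genes, Irgm1 ran from −0.12 to 0.57, Irgm2 from −0.37 to 0.57, Igtp from −0.34 to 0.73, Iigp1 from −0.55 to 0.91, Tgtp1 from −2.04 to 0.030, Tgtp2 from −0.68 to 0.41 and Ifi47 from −0.30 to 0.32. Ifi47 was also at −0.042 with quantile normalization, −0.022 with equal totals, −0.0016 with edgeR and −0.020 with DESeq2. In Eff vs Ctrl with single samples left out, Iigp1 ran from −0.092 to 1.64, Tgtp2 from −1.27 to 0.45 and Tgtp1 from −1.10 to −0.19. In the same fits, Irgm1 ran from −0.44 to −0.25, Irgm2 from −1.02 to −0.39, Igtp from −0.58 to −0.41 and Ifi47 from −0.80 to −0.10. With all samples, Tgtp2 was at −2.08 with DESeq2 and −1.83 with edgeR. In the difference between the stimulus effects with single samples left out, Iigp1 ran from −1.47 to 0.27, Tgtp1 from −1.39 to 0.67 and Tgtp2 from −0.59 to 1.14. With all samples, Tgtp2 was there at 1.87 with DESeq2 and 1.64 with edgeR.

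The samples share replicate numbers 1 and 2, but nothing says that a number marks a shared preparation. Differences between replicate 1 and replicate 2 correlated across genes in all 6 pairs of groups, with r between 0.404 and 0.595. With a replicate block, limma called Irgm1, Irgm2, Igtp and Ifi47 higher in both stimulus contrasts. Of the 16309 genes tested, 3337 were called higher in LPS vs Ctrl and 3101 in LPSEff vs Eff. Iigp1, Tgtp1 and Tgtp2 were called too, with the same limit as before. The medians of the 7 genes were 5.05 and 5.21, and 0 of the 7 were called in the other comparisons. Over all genes the calls rose from 3910 to 6717 in LPS vs Ctrl, from 3213 to 6033 in LPSEff vs Eff, from 41 to 436 in Eff vs Ctrl and from 126 to 1137 in LPSEff vs LPS. Of the 65 genes of the lists, 7 were called with efferocytosis alone and 4 with efferocytosis before the stimulus under the block. With the block in edgeR and DESeq2, the median in LPSEff vs Eff was 5.76 and 5.75, and Ifi47 in LPSEff vs LPS was at −0.010 and −0.031. Under the block, Irgm2 in Eff vs Ctrl had an unadjusted p of 0.037 with limma and 0.048 with DESeq2. In LPSEff vs LPS, Tgtp1 had an unadjusted p of 0.023 with edgeR and the block. None of these was called.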
